A study of Mus musculus with 6 samples.

Results

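Cdkn1a, Btg2, Eda2r and Phlda3 are 4 genes that the tumour suppressor p53 is known to switch on. They were chosen by name as p53 targets tied to growth arrest, with earlier results of these data known. They were 4 of 9519 genes that could be read in the kidney libraries, and all 4 were among the 5246 genes that passed the filter on low counts. RNA of C57BL/6 mouse kidney at postnatal day 21 was sequenced in 6 libraries. The 3 ARF-labelled libraries carry the diagnosis of acute renal failure, a rapid loss of kidney function, and the sample titles call them treated without naming an agent. The 3 healthy-labelled libraries carry the diagnosis healthy and are called controls. The labels name no genotype other than the C57BL/6 strain, which all libraries share, and do not give how renal failure was brought about. Nothing in them tells whether each library is from its own animal; the p-values then measure only how much these 6 libraries vary, which may be technical. Total counts were 5455886 to 6191479 in the ARF-labelled libraries and 2873370 to 5710010 in the healthy-labelled libraries.

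The design has no targeted gene on which the labels could be checked. Cdkn1a and Gdf15, a stress cytokine gene, are known to rise in injured kidney tubules of mice. Both were lower in the ARF-labelled libraries, which for these 2 genes runs against the label. They were picked from many genes and cannot settle whether the labels are right. The groups are therefore called by their labels throughout, and a direction here says nothing of injury. Of 19 kidney tubule and podocyte markers 9 could be read, and their summed level was 16844 to 20569 CPM (counts per 1000000 counts of the library total) in the ARF-labelled libraries and 7420 to 9281 CPM in the healthy-labelled libraries. In the ARF-labelled libraries 6 of the 9 were higher and 2 lower, beside 25.1% higher and 24.9% lower over all genes tested. The largest parts of the ARF-labelled sum were Aqp3 (mean 8297 CPM, against 3224 CPM in healthy-labelled libraries) and Calb1 (4513 against 1013 CPM). The lower ones were Slc34a1 (384 CPM in ARF-labelled, 2091 CPM in healthy-labelled libraries) and Synpo (4.11 and 19.2 CPM). The sum thus does not describe every marker.

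In an unstressed cell p53 is kept low because the ubiquitin ligase MDM2 marks it for degradation. DNA damage, oxidants and other stresses activate kinases such as ATM that free p53, which then binds DNA as a tetramer and activates its targets. Cdkn1a encodes p21, which binds and inhibits cyclin-dependent kinases and so halts the cell cycle, and which in the kidney is known from mice to be induced in damaged tubule cells. Btg2 encodes an antiproliferative adaptor that recruits the CCR4-NOT deadenylase to messenger RNAs and is also an immediate early gene of growth factor signalling. Eda2r, also called XEDAR, encodes a receptor of the tumour necrosis factor family for ectodysplasin A2 that signals to NF-kB and JNK. Phlda3 encodes a small protein with a pleckstrin homology domain that competes with AKT for membrane lipids and so dampens AKT signalling.

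The gene names of most deposited rows belong to other intervals than the reads, so each gene was read by its position on the mouse assembly GRCm38, over the exon bases that a row's intervals happen to cover. Each of the 4 genes was read through a single row. Rows that carry the genes' own names had totals over the 6 libraries of 62 counts for Cdkn1a, 0 for Btg2, 6 for Eda2r and 1 for Phlda3, and were not used. The counted coding stretches are shown because they define what was measured. They are in the direction of the messenger RNA, from GENCODE M21 transcripts, with capitals for the bases of the start codon.
Cdkn1a, chr17:29098410-29098470, plus strand: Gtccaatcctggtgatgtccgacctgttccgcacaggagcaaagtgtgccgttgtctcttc
Btg2, chr1:134078912-134079053, minus strand: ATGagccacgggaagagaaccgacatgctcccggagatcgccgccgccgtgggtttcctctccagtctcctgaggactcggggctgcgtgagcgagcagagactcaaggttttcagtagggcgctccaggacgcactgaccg
Eda2r, chrX:97361761-97361847, minus strand: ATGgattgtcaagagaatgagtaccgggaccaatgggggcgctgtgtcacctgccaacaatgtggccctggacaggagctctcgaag
Phlda3, chr1:135766449-135766748, plus strand: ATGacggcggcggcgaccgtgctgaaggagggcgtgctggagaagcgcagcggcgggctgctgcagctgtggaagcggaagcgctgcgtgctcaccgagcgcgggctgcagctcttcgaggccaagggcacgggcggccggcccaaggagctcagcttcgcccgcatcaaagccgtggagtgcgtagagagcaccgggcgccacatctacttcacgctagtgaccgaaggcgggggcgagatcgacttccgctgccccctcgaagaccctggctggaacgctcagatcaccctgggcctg
The Cdkn1a stretch is 61 bases long and begins at base 3 of the coding sequence, so it holds 1 base of the start codon. The stretches of Btg2 (142 of 477 coding bases) and Eda2r (87 of 894) begin with their start codons. That of Phlda3 shows the first 300 of 378 coding bases, all of which were counted.

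Cdkn1a (chromosome 17, 29090976 to 29100727, plus strand) was counted over 754 of 2718 exon bases, namely the coding stretch and 693 bases of 3′ UTR from 29099910 to 29100602. Btg2 (chromosome 1, 134075170 to 134079120, minus strand) was counted over 503 of 2743 exon bases, 361 of them UTR. Eda2r (chromosome X, 97333840 to 97377216, minus strand) was counted over 98 of 4797 exon bases, 11 of them UTR. Phlda3 (chromosome 1, 135766119 to 135769136, plus strand) was counted over 950 of 1435 exon bases of the annotation used. The rows also cover introns of the same gene, 7115 bases for Eda2r, 509 for Cdkn1a, 480 for Phlda3 and 197 for Btg2. Introns of other genes take 661 bases of the Cdkn1a row and 121 of the Btg2 row. Stretches between genes take 2913 of 4837 bases for Cdkn1a, 994 of 1815 for Btg2, 2835 of 10048 for Eda2r and 5923 of 7752 for Phlda3. A row gives 1 count for all its bases, so reads from spliced and unspliced RNA cannot be told apart, which touches Eda2r most. The row of Phlda3 also covers 275 bases of an exon of Tnni1, a neighbouring troponin gene, that lies only in a transcript outside the annotation used. Apart from it, no annotated exon of another gene, on either strand, lies under the 4 rows. Counted lengths differ, so levels of different genes are not compared. The first exons of Cdkn1a were not counted, so its start sites cannot be told apart here.

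The deposited data are of RNA alone, and the promoter stretches are shown only for exact letter matches to the sites of known regulators. RefSeq windows (GRCm38.p6, 250 bases before to 50 after a start) gave 2 windows for Cdkn1a and 1 for each of the others. A p53 site was searched as 2 decamers of the p53 consensus at most 13 bases apart, the cAMP response element (CRE) as TGACGTCA and the AP-1 site as TGANTCA, all on both strands. Capitals mark the matches.
Cdkn1a, chr17:29090882-29090961, plus strand: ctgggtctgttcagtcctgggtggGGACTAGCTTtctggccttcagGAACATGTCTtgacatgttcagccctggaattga
Btg2, chr1:134079278-134079357, minus strand: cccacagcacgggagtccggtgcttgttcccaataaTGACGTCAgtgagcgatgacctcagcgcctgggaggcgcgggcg
The Cdkn1a match lies 73 to 42 bases before that window's start site. The bases tgacatgttc directly after GAACATGTCT depart from the consensus decamer only at their first base, so they were not marked. The marked pair is therefore not the only possible one, and which bases p53 binds was not tested. A pair of decamers was found in 24 of 32851 mouse windows (0.0731%) and a single decamer in 8.36%, each pair also counting as single decamers. In Btg2 the CRE lies 166 to 159 bases before the start, and 1.79% of windows hold one. AP-1 matches stood in 7.81% of windows and in none of the 5 windows of these genes. The windows of Eda2r and Phlda3 held none of these letters, which says nothing of p53 or other factors elsewhere at these genes.

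The question is how these 4 p53 targets differ between ARF-labelled and healthy-labelled kidneys. Cdkn1a, Btg2 and Eda2r were lower and Phlda3 was higher in the ARF-labelled libraries. In each of the 4 the groups did not overlap. Of all genes tested 50.0% passed the threshold of an adjusted p under 0.05, 25.1% as higher and 24.9% as lower. The groups did not overlap in 62.4%. The 4 of 4 called and 4 of 4 without overlap thus stand against a high background, for genes chosen with earlier results known. Tests were edgeR's quasi-likelihood test, two-sided, with Benjamini-Hochberg adjustment over all 5246 genes, and log2 fold changes are ARF-labelled minus healthy-labelled. Over all genes tested the median of the log2 fold changes was 0.01, and 0.19 when libraries were scaled by total count alone. That scaling called 1749 genes higher and 1013 lower, so 63.3% of its calls were higher against 50.3% with the scaling used here. In whole kidney, fewer cells of a type and less RNA per cell cannot be told apart.

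The CDK inhibitor gene Cdkn1a had 59.0, 52.3 and 70.4 CPM in the ARF-labelled libraries, against 564, 686 and 596 CPM in the healthy-labelled libraries. Every ARF-labelled library was far below every healthy-labelled one. The underlying counts were 322, 289 and 436 in the ARF-labelled and 3223, 1972 and 2163 in the healthy-labelled libraries. The group means were 60.6 ± 9.16 CPM in ARF-labelled and 615 ± 63.3 CPM in healthy-labelled libraries (SD, n = 3 each). Cdkn1a was 11.5-fold lower (log2 fold change -3.52, SE 0.15, 95% interval -3.81 to -3.23, edgeR adjusted p = 4.31e-06). Falls at least this large made up 1.01% of all genes tested (53 genes). With each library left out in turn the log2 fold change lay between -3.62 and -3.42.

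Btg2, the antiproliferative adaptor gene, had 155, 121 and 160 CPM in the ARF-labelled libraries, against 380, 469 and 430 CPM in the healthy-labelled libraries. The highest ARF-labelled library was below the lowest healthy-labelled one. The counts were 845, 669 and 993 in the ARF-labelled and 2170, 1347 and 1563 in the healthy-labelled libraries. Mean levels were 145 ± 21.3 CPM in ARF-labelled and 426 ± 44.5 CPM in healthy-labelled libraries (SD, n = 3 each). Btg2 was 3.31-fold lower (log2 fold change -1.73, SE 0.14, edgeR adjusted p = 3.59e-05). A fall at least as large was seen in 6.58% of all genes tested (345 genes).

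Eda2r, the ectodysplasin A2 receptor gene, was the least deeply counted. It had 10, 10 and 14 counts in the ARF-labelled libraries, against 20, 17 and 14 counts in the healthy-labelled libraries. Relative to the library totals these are 1.83, 1.81 and 2.26 CPM in ARF-labelled, against 3.50, 5.92 and 3.86 CPM in healthy-labelled libraries. The groups did not overlap, but single libraries were close: the exact 95% Poisson interval of ARF-labelled replicate 3 ran from 1.24 to 3.79 CPM and that of healthy-labelled replicate 1 from 2.14 to 5.41 CPM, for counting error only. Eda2r was 2.45-fold lower (log2 fold change -1.29, SE 0.34, edgeR adjusted p = 0.0129), with means of 1.97 ± 0.254 CPM in ARF-labelled and 4.42 ± 1.30 CPM in healthy-labelled libraries (SD, n = 3 each). The adjusted p stayed under 0.05 with each library left out, the highest being 0.0468. A minimum of 100 counted exon bases leaves Eda2r out.

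Phlda3, the AKT antagonist gene, moved the other way. It had 69.6, 85.8 and 77.4 CPM in the ARF-labelled libraries, against 46.4, 58.1 and 44.6 CPM in the healthy-labelled libraries. The lowest ARF-labelled library stood above the highest healthy-labelled one. The counts were 380, 474 and 479 in the ARF-labelled and 265, 167 and 162 in the healthy-labelled libraries. Phlda3 was 1.39-fold higher (log2 fold change 0.48, SE 0.15, edgeR adjusted p = 0.0244), with means of 77.6 ± 8.07 CPM in ARF-labelled and 49.7 ± 7.33 CPM in healthy-labelled libraries (SD, n = 3 each). This is a small rise among these libraries, since 27.2% of all genes tested rose at least as much. The call was lost without ARF-labelled replicate 2 (log2 fold change 0.39, adjusted p = 0.0775), without healthy-labelled replicate 1 (0.43, adjusted p = 0.0670) and without healthy-labelled replicate 3 (0.38, adjusted p = 0.101).

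**Figure D1:**
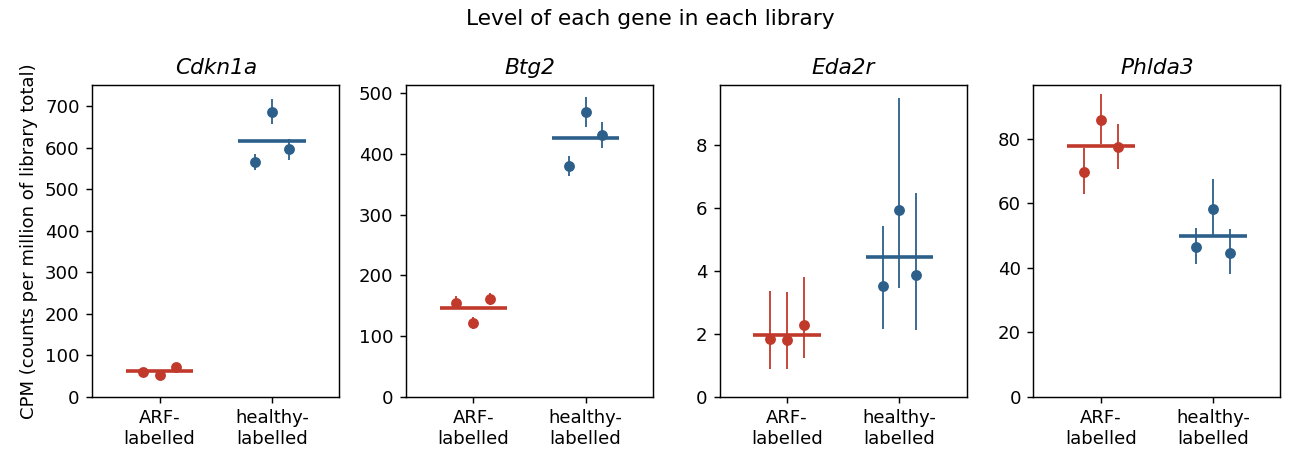
Level of each gene in CPM (y axis, starting at 0) in the ARF-labelled (red) and healthy-labelled (blue) libraries. Points are libraries with exact 95% Poisson intervals and bars are group means; the ARF-labelled points lie below the healthy-labelled ones for Cdkn1a, Btg2 and Eda2r and above them for Phlda3, with intervals of some ARF-labelled and healthy-labelled libraries overlapping for Eda2r and Phlda3.

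The distribution of the fold changes of all 5246 genes places the 4 genes among the rest.

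**Figure D2:**
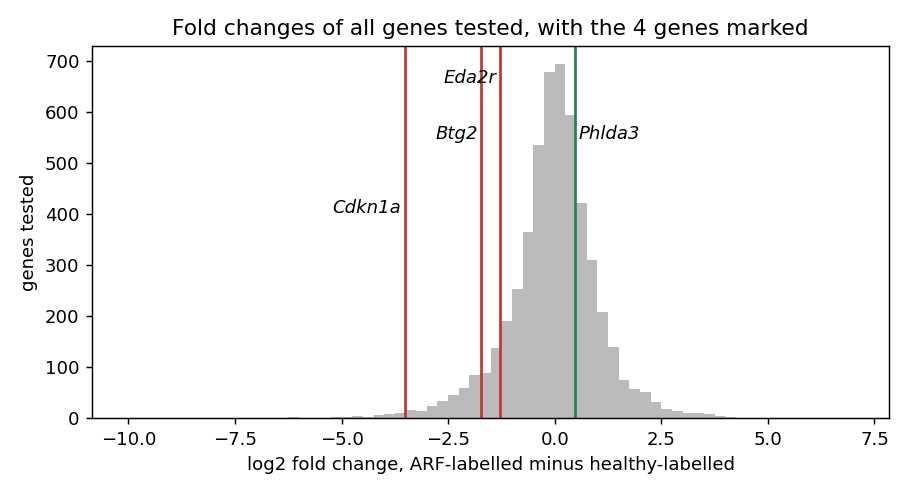
Histogram of log2 fold changes (x axis, ARF-labelled minus healthy-labelled) of all 5246 genes tested (y axis, number of genes), with vertical lines at the 4 genes. Cdkn1a at -3.52 lies in the far left tail, Btg2 at -1.73 and Eda2r at -1.29 on the left flank, and Phlda3 at 0.48 close to the centre.

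**Figure D3:**
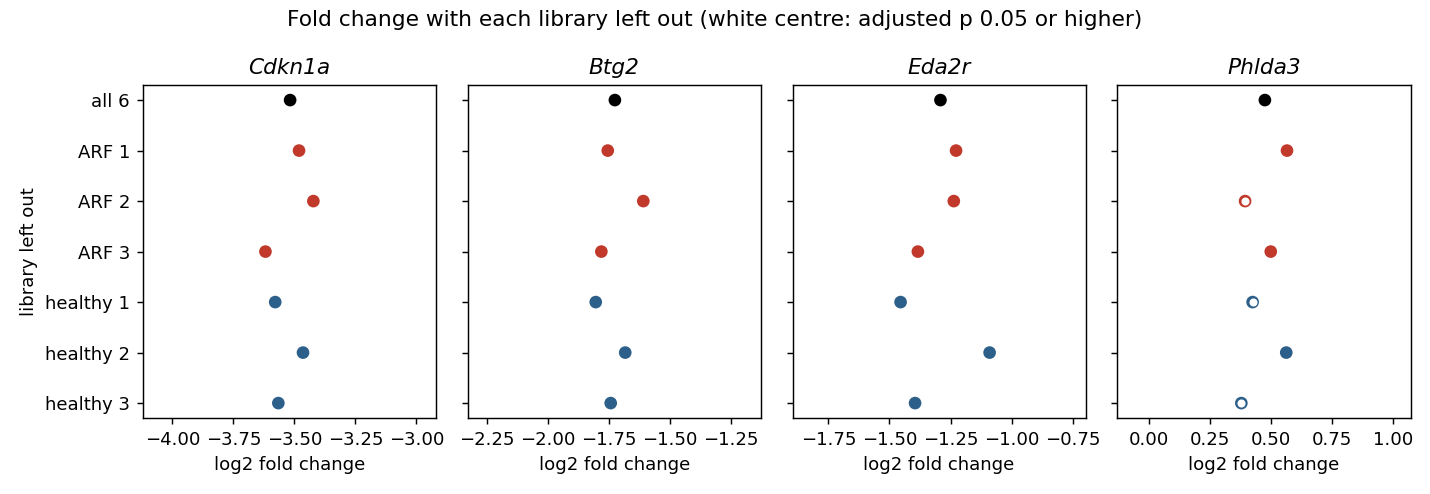
Log2 fold change (x axis, ARF-labelled minus healthy-labelled) with all 6 libraries (black) and with each ARF-labelled (red) or healthy-labelled (blue) library left out. A white centre marks an adjusted p of 0.05 or higher, which occurs 3 times for Phlda3 and never for Cdkn1a, Btg2 or Eda2r.

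Ratios of counts within a library do not depend on how libraries are scaled, and they show how unequally the 4 genes changed. The ratio of Cdkn1a to Phlda3 counts was 0.847, 0.610 and 0.910 in the ARF-labelled libraries, against 12.2, 11.8 and 13.4 in the healthy-labelled libraries. It was thus 15.9-fold lower in the ARF-labelled libraries (log2 difference -3.99). Between the 2 arrest genes, the ratio of Cdkn1a to Btg2 was 0.381, 0.432 and 0.439 in the ARF-labelled libraries, against 1.49, 1.46 and 1.38 in the healthy-labelled libraries, which is 3.46-fold lower. Btg2 to Phlda3 was 2.22, 1.41 and 2.07 in the ARF-labelled libraries, against 8.19, 8.07 and 9.65 in the healthy-labelled libraries, which is 4.60-fold lower. For Btg2 to Eda2r the groups overlapped (log2 difference -0.44, exact permutation p = 0.2). Of the 6 pairs the other 5 did not overlap and had the smallest two-sided exact permutation p that 3 against 3 libraries allow, 0.1, or 0.12 after Benjamini-Hochberg adjustment over the 6 pairs. The ratios set counted lengths of different size against each other, so only their change between groups can be read.

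**Figure D4:**
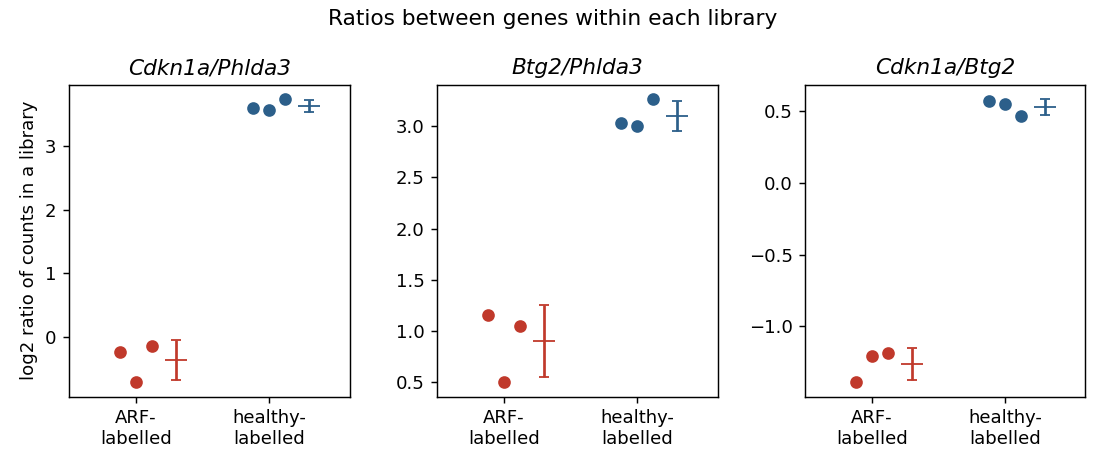
Log2 ratio of the counts of 2 genes within each library (y axis) for 3 of the 6 pairs, ARF-labelled (red) and healthy-labelled (blue), with points for libraries and bars for mean ± SD (n = 3). The groups are apart in all 3 panels, furthest for Cdkn1a to Phlda3, at a mean of -0.36 in ARF-labelled and 3.63 in healthy-labelled libraries.

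Genes with the most similar pattern were found by Pearson's r of log2 CPM over the 6 libraries. The 6 points fall into the 2 groups and share their libraries, so r is a description only. The genes most like Cdkn1a were Pdlim7, Zfp384 and Pfkfb4 (r = 0.999 each), out of 573 of 5242 genes with r over 0.95. Nearest to Btg2 were Klf4 (r = 1.000), Sbno2 (0.999) and Map4k4 (0.999), out of 555 genes over 0.95. Eda2r was closest to Zfp382 (0.998), Glipr1l2 (0.994) and Filip1l (0.994), with 219 genes over 0.95. For Phlda3 these were Zscan18 (0.996), Iqsec2 (0.995) and Zfp82 (0.994), with 69 genes over 0.95.

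Other p53 targets were read from 5 lists by role, 64 genes in all, of which 22 could be read and 18 were tested. In the ARF-labelled libraries 5 of the 18 were higher, 8 lower and 5 not called, with a median log2 fold change of -0.38, beside 25.1% higher, 24.9% lower and a median of 0.01 over all genes. The count of higher genes was 3 without ARF-labelled replicate 3, without healthy-labelled replicate 1, 2 or 3, and by DESeq2.

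Of 13 arrest and checkpoint targets only Plk3 and Ier5 could be read, and both were lower, beside 24.9% of all genes tested. Plk3, a stress-activated polo-like kinase gene, averaged 36.0 ± 7.83 CPM in ARF-labelled and 412 ± 133 CPM in healthy-labelled ones (log2 fold change -3.69, SE 0.26, edgeR adjusted p = 2.45e-05). Ier5, an immediate early response gene, averaged 10.5 ± 0.90 CPM in ARF-labelled and 38.0 ± 14.1 CPM in healthy-labelled ones (log2 fold change -2.0, SE 0.25, adjusted p = 0.000337).

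All 5 secreted and surface targets tested, of 11 in the list, were lower, beside 24.9% of all genes tested. Their median log2 fold change was -2.30. Gdf15, the stress cytokine gene, averaged 85.4 ± 22.4 CPM in ARF-labelled and 826 ± 79.0 CPM in healthy-labelled libraries (log2 fold change -3.45, adjusted p = 1.07e-05). Epha2, an ephrin receptor gene, stood at -2.30 (adjusted p = 6.36e-06), Tnfrsf1a, the main receptor of tumour necrosis factor, at -1.59 (adjusted p = 1.25e-05) and the receptor gene Notch1 at -1.50 (adjusted p = 0.000327).

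The 7 DNA repair and metabolism targets tested, of 18, held 5 higher genes, 0 lower and 2 not called. Over all genes tested 25.1% were higher and 24.9% lower. The median log2 fold change of these targets was 0.58. Ephx1, the microsomal epoxide hydrolase gene, averaged 698 ± 101 CPM in ARF-labelled and 158 ± 56.5 CPM in healthy-labelled libraries (log2 fold change 1.97, adjusted p = 0.000327). Xpc, the damage sensor of nucleotide excision repair, stood at 0.98 (adjusted p = 0.000335) and Tigar, a fructose bisphosphatase gene that slows glycolysis, at 0.58 (adjusted p = 0.00482). Slc19a2, a thiamine transporter gene, stood at 1.22 (adjusted p = 0.0341), but its call was lost in 8 of 14 alternative settings, among them without ARF-labelled replicate 2 or 3 or any single healthy-labelled replicate, and it read -0.93 when rows with a share of at least 0.5 were taken. Ercc5, an endonuclease gene of nucleotide excision repair, stood at 0.36 (adjusted p = 0.0443), a call lost in 7 of 14 alternative settings, among them without ARF-labelled replicate 1 or 3 or any single healthy-labelled replicate. These are the 5 higher genes of the 5 lists, whose number fell to 3 without ARF-labelled replicate 3 or any single healthy-labelled replicate.

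Of the cell death targets 2 of 14 were tested. Apaf1, the scaffold of the apoptosome, was lower (log2 fold change -1.09, adjusted p = 0.00204). Bax, which permeabilizes mitochondria and was read through only 58 exon bases, did not pass the test (-0.12, adjusted p = 0.454). The feedback list had 2 of 8 tested, Mdm4, an inhibitor of p53 (0.02, adjusted p = 0.95), and Trp53inp1, a stress-induced cofactor (-0.40, adjusted p = 0.107), and neither passed. Mdm2 was not read by position.

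**Figure D5:**
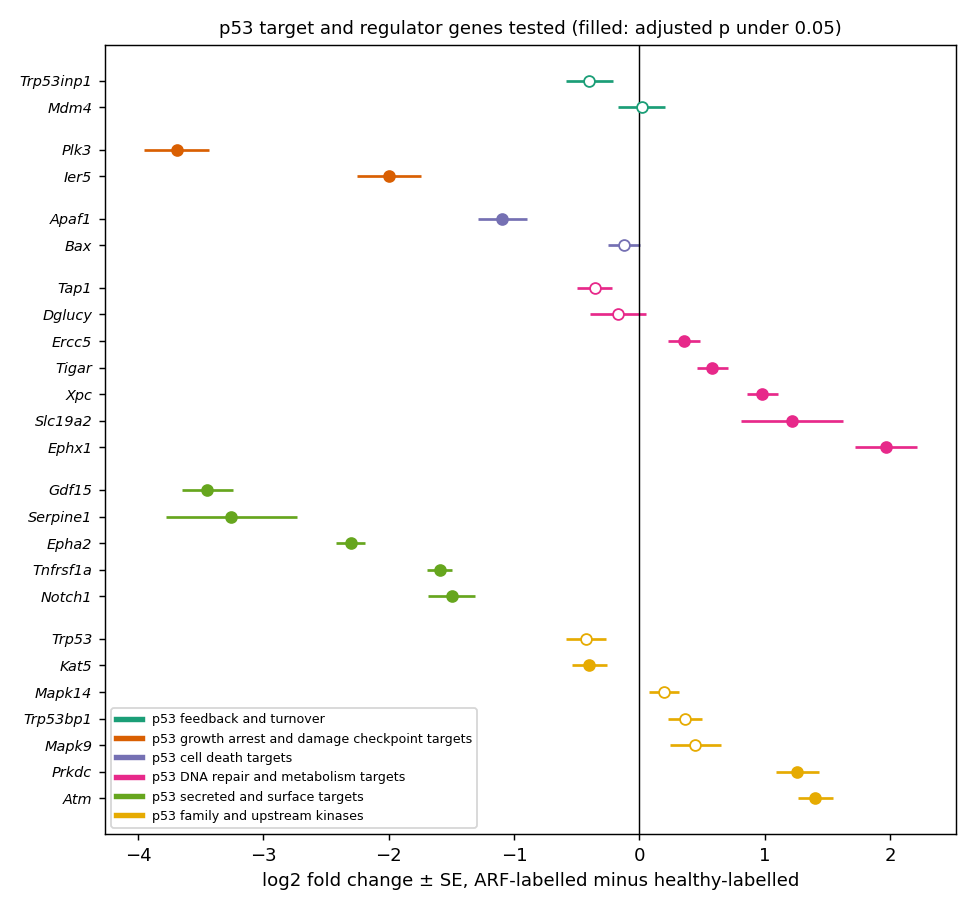
Log2 fold change ± SE (x axis, ARF-labelled minus healthy-labelled) of each tested gene of the 5 p53 target lists and of the p53 family and upstream kinases, coloured by list; filled points passed an adjusted p under 0.05. The arrest and the secreted or surface targets lie left of 0 (ARF-labelled lower), and 5 of 7 repair and metabolism targets are filled and right of 0.

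The messenger RNA of p53 itself did not pass the test in the main setting, but lay close to the threshold. Its groups did not overlap in CPM, as in 62.4% of all genes tested. Trp53, read through 34 exon bases, averaged 15.8 ± 0.530 CPM in ARF-labelled and 18.8 ± 1.93 CPM in healthy-labelled ones (log2 fold change -0.42, SE 0.16, adjusted p = 0.0541). p53 is mainly controlled as a protein, which was not measured. Of its family and upstream enzymes, Trp53 included, 7 of 14 were tested, with 2 higher, 1 lower and 4 not called. Scaled by total count 5 were higher and 0 lower. With DESeq2 size factors 2 were higher and 2 lower. Only Trp53 and Kat5 of the tested genes had a negative log2 fold change, so the call of Trp53 depends on the scaling. Atm, the kinase of DNA double-strand breaks, averaged 95.7 ± 13.5 CPM in ARF-labelled and 32.2 ± 2.66 CPM in healthy-labelled libraries (log2 fold change 1.40, adjusted p = 9.82e-05). Prkdc, the DNA-dependent protein kinase gene, stood at 1.26 (adjusted p = 0.000455). The lower one, the acetyltransferase gene Kat5 (-0.40, adjusted p = 0.0392), lost its call in 7 of 14 alternative settings, among them without any single ARF-labelled replicate or healthy-labelled replicate 1, and was -0.22 when scaled by total count.

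The cell cycle genes downstream of p21 were read for what Cdkn1a acts on. None of the 6 other CDK inhibitor genes could be read. Among 7 tested of 32 cyclin, CDK and RB pathway genes 2 were higher, 2 lower and 3 not called. The retinoblastoma family members Rbl1 (0.92, adjusted p = 0.00415) and Rb1 (0.76, adjusted p = 0.00944) were higher on the log2 scale. Cdk6, a kinase that p21 binds (-0.78, adjusted p = 0.00455), and the repressor E2f7 (-1.97, adjusted p = 0.0148; not called without ARF-labelled replicate 1 or 2 or healthy-labelled replicate 3) were lower. Of 44 S phase and mitosis genes 10 were tested, with 2 higher, 2 lower, 6 not called and a median log2 fold change of 0.04. Racgap1, needed for cytokinesis (2.41, adjusted p = 6.10e-05), and Rrm1, the large ribonucleotide reductase subunit (1.04, adjusted p = 0.00692), were higher, and the cyclin gene Ccnf (-1.93, adjusted p = 0.00882) and Uhrf1, a reader of hemimethylated DNA (-0.73, adjusted p = 0.0268), were lower. The call of Uhrf1 was lost without ARF-labelled replicate 1 or 3 or healthy-labelled replicate 1, and when scaled by total count. Calls in this list thus stood at 4 of 10 beside 50.0% of all genes.

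Partners of Btg2 were read from 18 genes of the BTG and TOB family and the CCR4-NOT deadenylase, of which 8 were tested, 3 higher, 3 lower and 2 not called. The number higher was 1 without ARF-labelled replicate 2 or 3 or healthy-labelled replicate 2 or 3, and the number lower was 1 with a minimum of 100 exon bases. Btg3, a relative of Btg2 read through 66 exon bases, was lower (log2 fold change -0.77, adjusted p = 0.00258). Pabpc1, the poly(A)-binding protein gene, averaged 953 ± 87.9 CPM in ARF-labelled and 2615 ± 249 CPM in healthy-labelled libraries (-1.63, adjusted p = 3.31e-05). Of the deadenylase subunits Cnot8 was higher (0.62, adjusted p = 0.00179) and Cnot6, read through 91 exon bases, lower (-1.04, adjusted p = 0.00240).

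Btg2 also belongs to the immediate early genes, which cells transcribe within minutes of a stimulus. Of 22 such genes 7 were tested, Btg2 among them, and all 7 were lower, beside 24.9% lower over all genes tested. Their median log2 fold change, Btg2 included, was -2.49. Fosl1, an AP-1 subunit read through 90 exon bases, averaged 0.626 ± 0.310 CPM in ARF-labelled and 87.8 ± 12.5 CPM in healthy-labelled libraries (-7.21, adjusted p = 2.72e-06). Dusp1, a phosphatase of MAP kinases, stood at -3.02 (adjusted p = 4.55e-05) and the AP-1 subunit gene Junb at -2.47 (adjusted p = 7.09e-05). Btg2 itself stood at -1.73 on this scale.

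Around Eda2r, a list of 19 genes held EDA family genes, related receptors, and adaptors, kinases and NF-kB subunits that other receptors share. The EDA family genes Eda, Edar and Edaradd could not be read. Of the list 9 were tested, with 1 higher, 4 lower and 4 not called. Scaled by total count 2 were higher and 2 lower. The number higher was 2 without ARF-labelled replicate 2 or healthy-labelled replicate 2. It was 0 without healthy-labelled replicate 3 and with a minimum of 100 exon bases. The NF-kB subunits Nfkb1 (log2 fold change -1.10, adjusted p = 0.000258) and Relb (-1.61, adjusted p = 0.000403) and the kinase gene Map3k7 (-0.49, adjusted p = 0.00834; -0.32 with adjusted p = 0.0530 when scaled by total count) were lower. The adaptor gene Traf2, read through 61 exon bases, was higher (0.80, adjusted p = 0.0151), a call lost without ARF-labelled replicate 1 or healthy-labelled replicate 3. In the AKT pathway on which Phlda3 acts, 9 of 18 genes were tested, with 1 higher, 3 lower and 5 not called; scaled by total count 2 were higher and 1 lower. The number lower was 1 without ARF-labelled replicate 1 or 2 or healthy-labelled replicate 3, and the number higher was 2 without ARF-labelled replicate 1. The kinase genes Akt1 (log2 fold change -0.48, adjusted p = 0.0253) and Akt2 (-0.32, adjusted p = 0.0357) were lower. The call of Akt1 was lost in 4 of 14 alternative settings, without ARF-labelled replicate 1 or 2 or healthy-labelled replicate 3 and when scaled by total count (-0.30). That of Akt2 was lost in 8 of 14, among them without any single ARF-labelled replicate or healthy-labelled replicate 1 or 3 and when scaled by total count (-0.15). Rptor, a subunit of the mTORC1 complex, was higher (0.55, adjusted p = 0.00231).

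Cdkn1a is known to answer to factors other than p53, and 6 of 20 such regulators were tested, with 2 higher, 3 lower and 1 not called. The number higher was 1 without ARF-labelled replicate 2 or 3 or healthy-labelled replicate 2 or 3, by DESeq2, and with rows of a share of at least 0.5, a setting that called 6 lower. Klf4, a zinc finger factor that activates Cdkn1a, averaged 58.0 ± 13.1 CPM in ARF-labelled and 309 ± 38.3 CPM in healthy-labelled libraries (log2 fold change -2.59, adjusted p = 1.96e-05). Stat3, the factor of interleukin-6 signalling (-1.14, adjusted p = 4.55e-05), and Sp1, which binds GC-rich promoters (-0.54, adjusted p = 0.00694), were lower, and Cebpa, a differentiation factor, was higher (0.67, adjusted p = 0.0139). Of 12 genes of senescence-associated secretion 3 were tested and 2 were lower, the matrix metalloproteases Mmp3 (-4.57, adjusted p = 6.11e-06) and Mmp10, with 1 count in the ARF-labelled and 66 counts in the healthy-labelled libraries (adjusted p = 0.000290). Changes in these genes are given beside Cdkn1a and were not tested as its cause.

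Markers of several other cell types also differed between the groups, beside 25.1% higher and 24.9% lower over all genes tested. The 6 macrophage markers read of 12 summed to 29.7 to 36.2 CPM in the ARF-labelled and 50.8 to 103 CPM in the healthy-labelled libraries, with 5 of 6 lower. Neutrophil markers, 2 read of 8, summed to 3.08 to 6.95 CPM in ARF-labelled and 46.6 to 155 CPM in healthy-labelled libraries, with 2 of 2 lower. The 4 erythroid markers read of 7 summed to 28.8 to 79.1 CPM in ARF-labelled and 163 to 789 CPM in healthy-labelled libraries, with 2 of 2 tested lower and the globin gene Hbb-bt at 0 in all libraries. Endothelial markers, 4 read of 9, summed to 119 to 127 CPM in ARF-labelled and 163 to 298 CPM in healthy-labelled libraries, with 3 of 4 lower. Fibroblast markers, 5 read of 7, overlapped between the groups at 267 to 462 CPM in ARF-labelled and 210 to 1605 CPM in healthy-labelled libraries, with 1 of 5 higher and 1 lower. The lymphocyte marker read, Ms4a1, had at most 0.323 CPM in ARF-labelled libraries and 0 in healthy-labelled ones. Urothelial and other tissue markers, 3 read of 11, summed to 237 to 294 CPM in ARF-labelled and 70.5 to 210 CPM in healthy-labelled libraries. Of 2 tested 1 was higher, Upk3a, with means of 204 CPM in ARF-labelled and 49.0 CPM in healthy-labelled libraries. Krt5, with 59.6 CPM in ARF-labelled and 77.3 CPM in healthy-labelled libraries, was not called. The part of these cell types in the changes of Cdkn1a, Btg2, Eda2r and Phlda3 was not tested.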

How the data were processed

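Kidney RNA of 3 ARF-labelled and 3 healthy-labelled libraries, grouped by the diagnosis in the labels, was prepared with Trizol and an Illumina TruSeq RNA kit, per the labels' protocols. The authors deposited counts per gene row, made with featureCounts 2.0.1 without use of strand, per the file headers. Bowtie 0.12.2 and mm9 are named in the submitters' processing notes, while the series text names other aligners; the aligner and build behind the counts are not given in the sources used here.

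Of 53546 deposited rows, 12401 were given by position (bedtools 2.31.1, Python 3.11.15, pandas 2.3.3) to the GRCm38 gene (GENCODE M21 basic) with at least 0.9 of their overlapped exon bases and at least 25 bases, and were summed per gene. This kept 63.0% of the counts in 9519 genes. The counts of 5246 genes passing filterByExpr were tested with edgeR 4.0.16 in R 4.3.3 (glmQLFit, glmQLFTest, TMM, library totals over all rows, group only, adjusted p under 0.05); SE is the log2 fold change divided by the root of F. The script was tested on simulated data. Alternatives were DESeq2 1.42.0, other scalings, filters and row rules, a replicate block and leaving out each library. Replicates differed by more than sampling noise (chi-square per degree of freedom 13.5 to 21.0). Log2 ratios of counts had 0.5 added to each count. The Poisson intervals of single libraries cover counting error only. The interval of the Cdkn1a log2 fold change is 1.96 SE to either side. That normal quantile takes no account of the small number of libraries, so the interval is too narrow.

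The 4 genes and the 23 lists were chosen with earlier results of these data known. Beside the 4 genes, the text names from each list that is not a marker list up to 4 called genes with the smallest adjusted p, any sole called gene in a direction, Trp53 and Mdm2. Mdm4, Trp53inp1, Bax, Ercc5 and the marker genes were named after their values were seen. Eda, Edar and Edaradd are named only as not read. For each of the 4 genes the 3 most correlated genes (log2 CPM, prior count 2) are named. 1 gene that the rule names is not reported here. A series table was not used.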

Additional observations from a re-analysis of the deposited data

How the results depend on the processing

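In the 14 alternative settings Cdkn1a, Btg2 and Eda2r kept their direction and stayed past the threshold wherever they were tested, and Phlda3 kept its direction. With each library left out in turn the log2 fold change of Phlda3 ranged from 0.38 to 0.57 and lost its call in 3 of 6 fits. The number of genes of the 5 p53 target lists called higher, 5 over all libraries, was 3 with DESeq2's Wald test and 3 with a replicate block, and ranged from 3 to 4 with each library left out. Where a setting took libraries out, fewer samples entered the fit; for the others the cause was not tested. Of the counts called in the other lists, leaving out pairs of 0 with 0, 175 stayed within 1.5 times and 49 moved further. Deviations from the group means correlated at -0.07, -0.22 and -0.29 between same-numbered libraries of the groups, and at -0.06 to 0.24 between the others. With 3 libraries per group the deviations constrain each other, so these values cannot tell whether the numbers pair the libraries. With the replicate block Cdkn1a had -3.52 (adjusted p = 4.65e-05), Btg2 -1.73 (0.000298), Eda2r -1.29 (0.0341) and Phlda3 0.47 (0.0314). Eda2r had no value under a minimum of 100 exon bases. Depth limits Eda2r, with 34 counts in all ARF-labelled and 51 in all healthy-labelled libraries.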
